A study of Sus scrofa with 2 samples.

Results

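KIT, MS4A2, HPGDS, HDC and GATA2 are genes that mast cells are known for, and their transcripts were followed through single cells of pig skin. They were taken by symbol from the second column of the gene list of each library, where each symbol had 1 row, and made up 5 of 31908 features. The series compared skin cells prepared fresh, with no treatment, with skin cells cryopreserved in 90% FBS and 10% DMSO, as 1 library each. Per the study's methods, dorsal skin came from male farm pigs, and it is not given whether 1 animal supplied both libraries. Dead cells were removed by fluorescence sorting, which also gated out doublets, or by magnetic sorting as an alternative. The paper does not state which of these preceded the 2 libraries. The extraction text of the library labelled fresh also describes freezing and thawing, while its title and treatment mark it as fresh. With 1 library per condition no test was possible, so all intervals below are exact 95% intervals that cover counting error only.

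Mast cells are long-lived granulocytes of the skin that sit along vessels and nerves and release histamine, proteases and lipid mediators when IgE on their surface is cross-linked. KIT is the receptor for stem cell factor, on which mast cells depend for growth and survival, and it is also known from melanocytes and blood progenitors. MS4A2 is the beta chain of the high-affinity IgE receptor and amplifies its signal. HDC makes histamine from histidine, HPGDS makes prostaglandin D2, and GATA2 is a transcription factor of blood progenitors, mast cells and endothelium.

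On Sscrofa11.1, the build of the files, RefSeq placed KIT at chr8:41402334-41492306, MS4A2 at chr2:11400415-11420314, HPGDS at chr8:125375906-125406066, HDC at chr1:121505677-121525416 and GATA2 at chr13:71981139-71997626. Because GATA2 is itself a member, the 250 bases before each RefSeq gene start were searched on both strands for AGATAA, its variant AGATAG, then TGATAA and its variant TGATAG (all 4 share GATA in the middle). Such letters stood in 20.1% of 19556 protein-coding promoters of this length and in 1 of the 5 members, MS4A2. The promoters shown are that of MS4A2, for its matches (in capitals), that of HDC, the gene with the largest share of its UMIs in mast-like cells, and that of KIT, which had UMIs in all 9 named classes.
MS4A2, chr2:11420315-11420564, minus strand: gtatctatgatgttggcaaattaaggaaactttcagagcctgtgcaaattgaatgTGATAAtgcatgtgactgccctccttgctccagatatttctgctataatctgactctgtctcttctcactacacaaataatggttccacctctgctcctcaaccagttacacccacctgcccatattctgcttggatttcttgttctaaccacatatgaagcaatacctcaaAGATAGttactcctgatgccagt
HDC, chr1:121505427-121505676, plus strand: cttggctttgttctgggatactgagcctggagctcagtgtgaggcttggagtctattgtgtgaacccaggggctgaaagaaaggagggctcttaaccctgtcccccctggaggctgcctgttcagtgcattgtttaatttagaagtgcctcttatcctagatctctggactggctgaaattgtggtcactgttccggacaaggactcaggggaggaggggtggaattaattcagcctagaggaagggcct
KIT, chr8:41402084-41402333, plus strand: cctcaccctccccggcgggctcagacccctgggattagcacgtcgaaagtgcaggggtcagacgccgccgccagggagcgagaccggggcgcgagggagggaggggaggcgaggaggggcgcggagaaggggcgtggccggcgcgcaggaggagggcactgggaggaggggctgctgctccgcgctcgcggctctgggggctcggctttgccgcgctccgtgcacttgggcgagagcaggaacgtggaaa
The 2 matches in MS4A2 began 195 and 23 bases before the gene start. GC content was 73.6% in KIT, 52.0% in HDC, 41.6% in MS4A2 and 37.6% in HPGDS, against a median of 57.6% over all promoters. A match is a run of letters and no evidence of binding.

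The files held 4379 fresh and 4860 cryopreserved barcodes, of which 2775 (63.4%) and 4223 (86.9%) were within the study's maxima of 4500 genes, 30000 UMIs and 10% mitochondrial UMIs. These cells held 32274985 and 36687009 UMIs, with medians of 11017 and 7945 UMIs per cell. A UMI is a count of 1 captured transcript molecule, and levels are given as CPM, each class's UMIs over all UMIs of its cells, scaled between libraries. The libraries shared 6 cell barcodes, 5 of them within the maxima. Cells were clustered without the 5 genes, and 1 of 23 clusters met the naming rule for mast cells from other markers.

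That mast-like cluster held 68 fresh cells, 2.45% of the library (1.91 to 3.10), and 82 cryopreserved cells, 1.94% (1.55 to 2.40). These shares hold within the mitochondrial limit. Barcodes over only that limit held 3 or more of the 5 genes in 0.697% of 1004 fresh and 7.85% of 446 cryopreserved cases. With the limit lifted, the share of cells with 3 or more of the genes was higher in the cryopreserved library. The mast-like cluster raised 13 of 17 measured mast cell markers, among them FCER1A, ENPP3, SLC18A2, LTC4S, GATA1 and CSF2RB. The markers not raised were STXBP6, RGS13, MAOB and SVOPL. STXBP6 was lower than in the remaining cells, at 0.134-fold (0.016 to 0.485) fresh and 0.251-fold (0.052 to 0.735) cryopreserved. RGS13 was at 0 UMIs in both libraries, MAOB had 1 UMI in each, and SVOPL had 1 fresh and 0 cryopreserved. The proteases CPA3, CMA1, TPSAB1, TPSB2 and MCT7 and the receptor MRGPRX2 were not matched by symbol and have no value here. Mast-like cells were shallow, with a median of 2750.5 UMIs fresh and 2438.5 cryopreserved, 0.250 and 0.307 of their library's median, and ENPP3 was among the 10 genes that led the cluster. Of the lists for other cells, all 7 melanocyte and all 5 Merkel cell markers were at 0 UMIs in them in both libraries, as were CD163, CD209 and CD207. The lists that hold these last 3 were not at 0 as a whole. The 6 Langerhans or other dendritic markers summed to 318 and 232 CPM in mast-like cells against 347 and 410 CPM in the remaining cells. In the fresh library 5 of these 6 were at 0, and all UMIs were of BCL2A1. Sums for the 9 CD163/CD209 myeloid markers were 222 and 150 CPM against 815 and 1350.5 CPM. Those for the 6 epidermal stem markers were 567 and 632 CPM against 4918 and 5591 CPM. The 8 T or NK cell markers summed to 617 CPM in fresh mast-like cells and 326 CPM in the remaining cells, and 785 and 435 CPM in the cryopreserved library. In the fresh library all of these UMIs were of NKG7, since the other 7 were at 0, and in the cryopreserved library 4 of the 8 were at 0. Fibroblast markers summed to 318 and 916 CPM in mast-like cells against 59334 and 61682 CPM in the rest. Of 5 basophil or eosinophil markers only 2 were measured, since CCR3, PRG2 and CLC were missing. These 2 summed to 3.83 and 3.74 CPM in mast-like cells, from 1 UMI in each library, against 0.277 and 0.473 CPM in the rest. That is too little to compare mast-like cells with basophils or eosinophils.

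All 5 genes were highest in mast-like cells in both libraries. KIT was at 4551 CPM (4296 to 4818) fresh and 4299 CPM (4054 to 4554) cryopreserved, 114-fold and 143-fold above the remaining cells. MS4A2 was at 4448 CPM (4196 to 4711) and 4149 CPM (3909 to 4400), 229-fold and 217-fold above the rest. HDC reached 2519 CPM (2330 to 2719) and 2276 CPM (2099 to 2465), with 0.493 and 0.473 CPM in the remaining cells. GATA2 was at 809 CPM (704 to 926) and 1577 CPM (1430 to 1735), and HPGDS at 288 CPM (226 to 360) and 318 CPM (254 to 393). At least 10-fold above the rest in both libraries were 5 of the 5 genes, beside 1.18% of 11692 genes with at least 200 UMIs. The members are known mast cell genes, so this count describes them and is no test.

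What separated the 5 genes was where the remainder of their UMIs lay. Mast-like cells, which held 0.797% and 0.739% of all UMIs, held 97.6% of HDC UMIs fresh and 97.3% cryopreserved. Their share was 64.8% and 61.7% for MS4A2, 47.9% and 51.6% for KIT, 44.6% and 60.6% for GATA2, and 38.1% and 38.6% for HPGDS. By this share HDC was the highest and HPGDS the lowest of the 5 in each library.

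**Figure D1:**
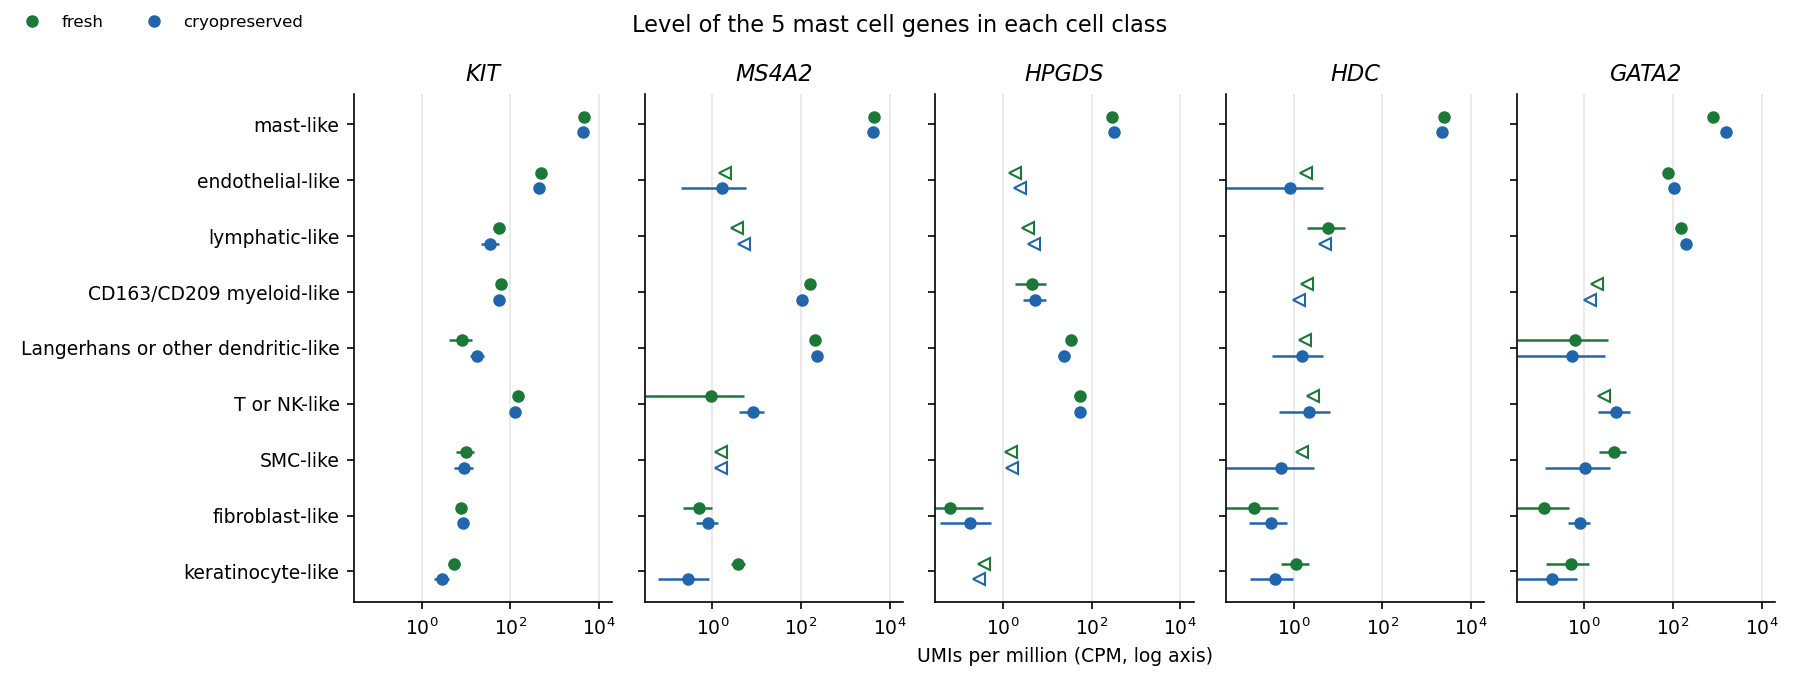
Level of each gene (CPM, log axis) in 9 cell classes, fresh in green and cryopreserved in blue, where points are sums over the cells of a class in 1 library, bars are exact 95% Poisson intervals, cut off at the left edge where they run below it, and open triangles mark the limit that 3 counts set for classes at 0 UMIs. Mast-like cells stand highest in each panel, and each gene but HDC has a further class above 20 CPM in both libraries: endothelial-like for KIT (497 and 442 CPM), Langerhans or other dendritic-like for MS4A2 (209 and 227 CPM), T or NK-like for HPGDS (53.8 and 56.0 CPM) and lymphatic-like for GATA2 (150 and 200 CPM).

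KIT was carried by blood endothelial-like cells, by a subset of lymphoid cells and by a small myeloid cluster. Endothelial-like cells were at 497 CPM (463 to 533) fresh and 442 CPM (406 to 481) cryopreserved, the second level in both libraries. A KIT UMI was found in 60.7% of 201 and 50.7% of 270 such cells, and in 46.1% and 38.4% after each cell was thinned to 2000 UMIs. Fibroblast-like cells, taken as background, gave 5.76% and 4.52%, or 1.17% and 1.30% after thinning. Their median depths were 12659 and 9959 UMIs against 6531 and 3958 in endothelial-like cells. This background was uneven before thinning, at 7.77% and 7.83% in cluster 0 and 10.1% and 5.34% in cluster 1. Cluster 5 gave 0.990% in each library, and cluster 6, with a fresh median of 16926 UMIs, gave 0.787% and 2.05%. Whether some fibroblast-like cells express KIT was not tested. T or NK-like cells followed with 148 CPM (126 to 173) and 130 CPM (111 to 151). Within them KIT lay in cluster 16, led by GNLY, IL17F and KLRB1, at 341 and 325 CPM, and was at 9.59 and 13.1 CPM in cluster 14.

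KIT-positive lymphoid cells had a CD3E UMI less often than the others, in a comparison chosen after the values were seen. Of the KIT-positive cells 15 of 19 and 27 of 31 lay in cluster 16, which held 65 and 98 cells. CD3E was among the leading genes of cluster 14 and was a raised marker of both clusters. The values below pool both clusters, and cells with and without KIT were not compared within cluster 16. CD3E, a chain of the T cell receptor complex, had a UMI in 9 of 19 fresh and 13 of 31 cryopreserved KIT-positive T or NK-like cells (47.4% and 41.9%), against 88.9% of 126 and 90.1% of 223 without KIT. GATA3, a factor of T cells and innate lymphoid cells, was found in 94.7% and 87.1% of KIT-positive cells and 72.2% and 77.1% of the others. IL7R, the interleukin-7 receptor, was found in 89.5% and 77.4% against 62.7% and 61.4%. GNLY, which led cluster 16, had a UMI in 0 of 19 and 1 of 31 KIT-positive cells and in 5.56% and 4.93% of the others. Median depths were 6440 and 5438 UMIs with KIT and 6530.5 and 4804 without.

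Among CD163/CD209 myeloid-like cells, KIT was nearly limited to cluster 20, led by ARG1 and MARCO, with 15 fresh and 44 cryopreserved cells. This cluster raised 7 of 9 myeloid markers, CD163 among them, but not CD209 or MRC1. CD209 had a UMI in 1 of 16 fresh and 4 of 33 cryopreserved KIT-positive myeloid-like cells, against 80.4% and 81.1% of the others. For CD163 these shares were 18.8% and 33.3% against 76.1% and 74.5%. KIT stood in cluster 20 at 577 and 332 CPM, in 86.7% and 63.6% of cells, and at 4.39 and 3.22 CPM in cluster 7, the larger myeloid cluster led by CD209. Depth was close between the clusters, with medians of 10516 and 7592.5 UMIs in cluster 20 and 8272 and 7490 in cluster 7. Lymphatic-like cells were at 54.9 CPM (40.0 to 73.4) and 35.5 CPM (22.0 to 54.3), which overlapped the myeloid-like level. Langerhans or other dendritic-like cells were at 7.93 and 18.0 CPM, and in SMC-like, fibroblast-like and keratinocyte-like cells KIT was between 2.86 and 9.75 CPM. No cell in either library held UMIs of 3 or more melanocyte markers, so the KIT level of melanocytes could not be measured here.

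MS4A2 showed a different second home, in antigen-presenting cells. Langerhans or other dendritic-like cells were at 209 CPM (187 to 232) and 227 CPM (206 to 250), and 76.4% of 106 and 72.7% of 183 of them had a UMI. After thinning to 2000 UMIs these shares were 29.2% and 35.0%. In fibroblast-like cells the share was 0.576% and 0.382%, at median depths of 12659 and 9959 UMIs against 14625 and 9459. CD163/CD209 myeloid-like cells were at 164 CPM (144 to 185) and 103 CPM (90.5 to 118), with a UMI in 51.9% and 44.2% of cells. The highest levels after these classes were 3.83 CPM in fresh keratinocyte-like cells and 8.21 CPM in cryopreserved T or NK-like cells. Both rested mostly on cells with UMIs of 3 or more of the 5 genes. Such cells held 14 and 9 of the 30 keratinocyte-like UMIs and 8 and 2 of the 11 T or NK-like UMIs. The dendritic-like class pools cells with and without CD207, the Langerhans marker. CD207 was at 156 and 206 CPM in its MS4A2-positive cells, against 353 and 360 CPM in those without MS4A2. A CD207 UMI was found in 40.7% and 45.1% of the former and 40.0% and 62.0% of the latter.

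The IgE-binding chain FCER1A accompanied MS4A2 in the dendritic-like but not in the myeloid-like cells. FCER1A had a UMI in 65.4% of 81 fresh and 67.7% of 133 cryopreserved MS4A2-positive dendritic-like cells, against 28.0% of 25 and 42.0% of 50 of those without MS4A2, at similar depth (14636 and 9559 UMIs against 13792 and 9104). In MS4A2-positive myeloid-like cells it was found in 1 of 80 and 2 of 122. These were deeper than the myeloid-like cells without MS4A2, with medians of 12577 and 9921.5 UMIs against 5830.5 and 6180.5. HDC had a UMI in 0 of 81 and 1 of 133 MS4A2-positive dendritic-like cells, where 0 of 81 allows a share of cells with a UMI of up to 3.70%, and in 0 of 80 and 0 of 122 of the myeloid-like ones, which allow up to 3.75% and 2.46%. These limits are on cells with an HDC UMI at this depth, not on cells that express HDC. The dendritic-like values pool cells with and without CD207, and FCER1A was not compared within either.

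HPGDS was found in a set of lymphoid cells and in dendritic-like cells. T or NK-like cells were at 53.8 CPM (40.9 to 69.6) and 56.0 CPM (44.1 to 70.2), and all 58 and 75 UMIs lay in cluster 14, led by RHEX, BLK and CD3E, at 92.7 and 89.5 CPM. It was at 0 UMIs in cluster 16, the lymphoid cluster with KIT. HPGDS and KIT shared 1 of 12 fresh and 0 of 32 cryopreserved HPGDS-positive T or NK-like cells. CD3E was present in 91.7% and 96.9% of HPGDS-positive lymphoid cells, and CD2, CCL5 and GNLY were at 0 UMIs in them in both libraries. In lymphoid cells without HPGDS these had a UMI in 21.8% and 17.6% (CD2), 18.8% and 12.2% (CCL5) and 5.26% and 5.41% (GNLY), and none of the 3 was among the raised markers of cluster 14, so the zeros cannot be told apart from the difference between the clusters. Their median depth was 9265 and 6052 UMIs, against 6361 and 4736 in lymphoid cells without HPGDS. Langerhans or other dendritic-like cells held 34.2 CPM (25.8 to 44.4) and 23.8 CPM (17.3 to 31.8). There 13.2% and 10.4% of cells had a UMI, and the 5 highest cells gave 75.0% and 55.6% of the UMIs. CD207 had a UMI in 71.4% of 14 and 73.7% of 19 HPGDS-positive dendritic-like cells, against 35.9% and 47.0% of those without HPGDS. Endothelial-like, lymphatic-like, SMC-like and keratinocyte-like cells were at 0 HPGDS UMIs in both libraries.

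GATA2 was shared with both kinds of endothelium and with no other class above 5.23 CPM. Lymphatic-like cells were at 150 CPM (125 to 179) and 200 CPM (165 to 239), above endothelial-like cells at 77.3 CPM (64.3 to 92.3) and 107 CPM (89.2 to 127) with intervals that did not overlap. A GATA2 UMI was found in 45.8% and 39.3% of lymphatic-like and 33.3% and 32.6% of endothelial-like cells, or 22.9% and 25.6% and 15.7% and 21.1% after thinning. The intervals of the thinned shares overlapped between the classes. They were 15.2 to 32.1 against 10.9 to 21.7 fresh, and 18.0 to 34.5 against 16.1 to 26.85 cryopreserved. In fibroblast-like cells the share was 0.165% and 0.636%. CD163/CD209 myeloid-like cells, which carried KIT in cluster 20 and MS4A2 in both clusters, were at 0 GATA2 and 0 HDC UMIs in both libraries. HDC did not exceed 6.10 CPM in any class outside mast-like cells, and that value, in fresh lymphatic-like cells, rested on 5 UMIs in 3 cells.

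Co-expression in single cells was counted without any clustering. Of 70 fresh and 89 cryopreserved cells with an HDC UMI, 92.9% and 89.9% also held KIT, 91.4% and 91.0% MS4A2, and 80.0% and 80.9% GATA2. Of 335 and 405 KIT-positive cells, 23.3% (18.9 to 28.2) and 24.9% held MS4A2, and in cells without KIT 6.64% of fresh and 6.55% of cryopreserved cells did. Cells with KIT were the shallower ones, at medians of 7800 and 5365 UMIs against 11525.5 and 8186. GATA2-positive cells held KIT in 59.0% and 61.1% of cases and HDC in 30.6% and 30.8%. Of 72 and 105 HPGDS-positive cells, 73.6% and 56.2% held MS4A2, 55.6% and 40.0% KIT, 51.4% and 38.1% HDC, and 44.4% and 37.1% GATA2. In both libraries KIT, MS4A2 and GATA2 were each found in a larger share of HDC-positive cells than of cells positive for any other member.

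**Figure D2:**
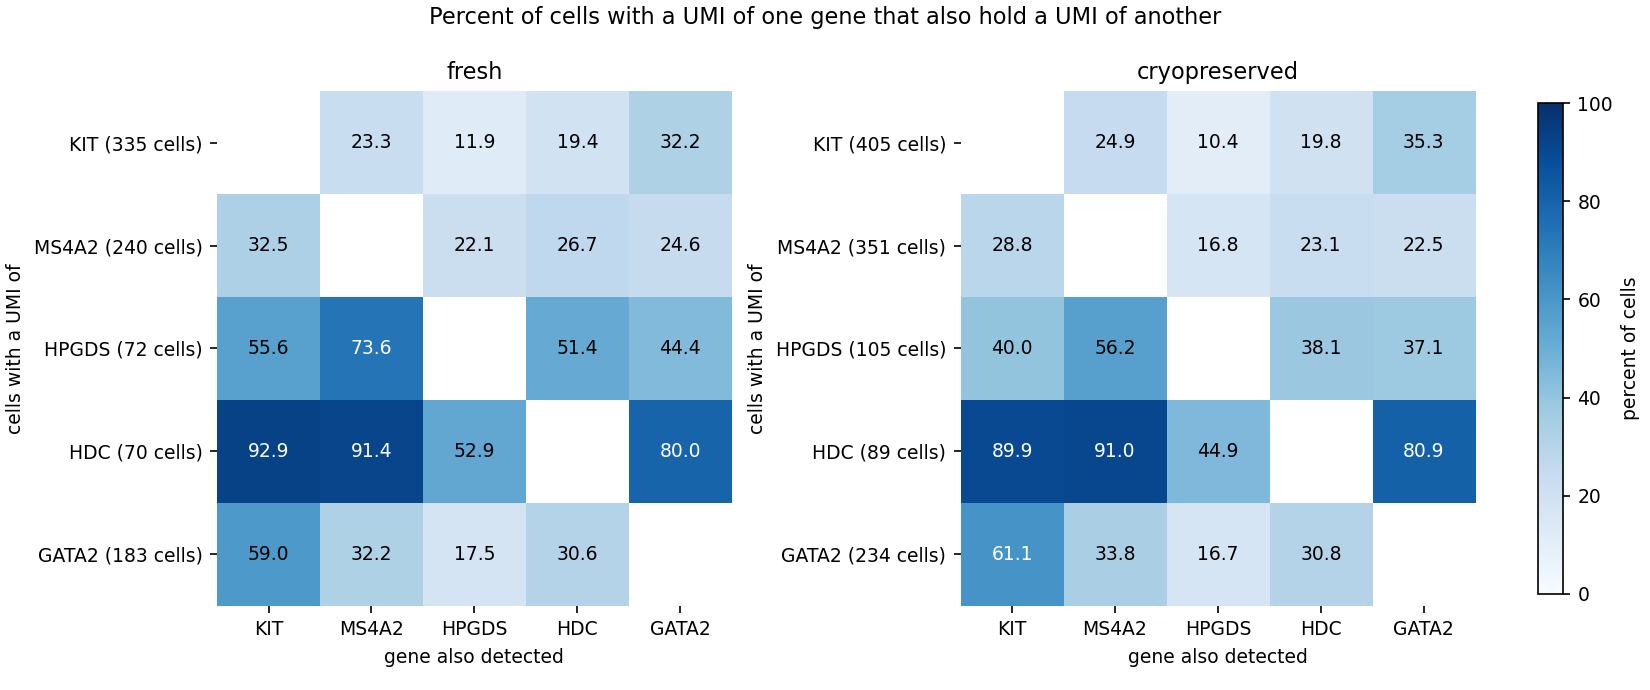
Percent of filtered cells with a UMI of the row gene that also hold a UMI of the column gene, fresh left and cryopreserved right, with the number of cells in each row. The HDC row is the darkest toward KIT and MS4A2 (92.9% and 91.4% fresh, 89.9% and 91.0% cryopreserved), while the KIT row does not exceed 35.3%.

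None of the 5 genes was detected in 78.6% of fresh and 81.1% of cryopreserved cells. UMIs of 3 or more of them were found in 69 fresh and 88 cryopreserved cells, and 66 and 81 of these were mast-like. All 5 were found together in 31 and 38 cells, every one of them mast-like. The 10 cells with 3 or more genes outside the mast-like cluster, 3 fresh and 7 cryopreserved, lay in 5 other classes and held 1773 to 13624 UMIs. Of these, 4 were among the 6% of cells with the highest Scrublet doublet scores in their library, and the part of doublets in the rest was not tested. Within mast-like cells the number of genes detected moved with depth. Cells with all 5 had a median of 3616 UMIs fresh and 2998 cryopreserved, and cells with 4 had 1965 and 2004.

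Single mast-like cells varied widely in each gene. KIT and MS4A2 were found in all 68 fresh and all 82 cryopreserved mast-like cells. KIT ran from 1 to 70 UMIs with a median of 10.5 fresh, and from 1 to 72 with a median of 9.5 cryopreserved. MS4A2 ran from 1 to 79 UMIs with a median of 14 fresh, and from 1 to 156 with a median of 8.5 cryopreserved. HDC was found in 91.2% (81.8 to 96.7) and 92.7% (84.8 to 97.3) of mast-like cells, and its 5 highest cells held 41.1% of all HDC UMIs there when fresh and 29.4% when cryopreserved. GATA2 was found in 82.4% and 91.5%, and HPGDS in 57.4% and 48.8%, or 45.5% and 45.8% after thinning to 2000 UMIs. Mast-like cells without an HPGDS UMI were shallower, with medians of 1830 and 1856.5 UMIs against 3269 and 2765.5 in those with one.

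**Figure D3:**
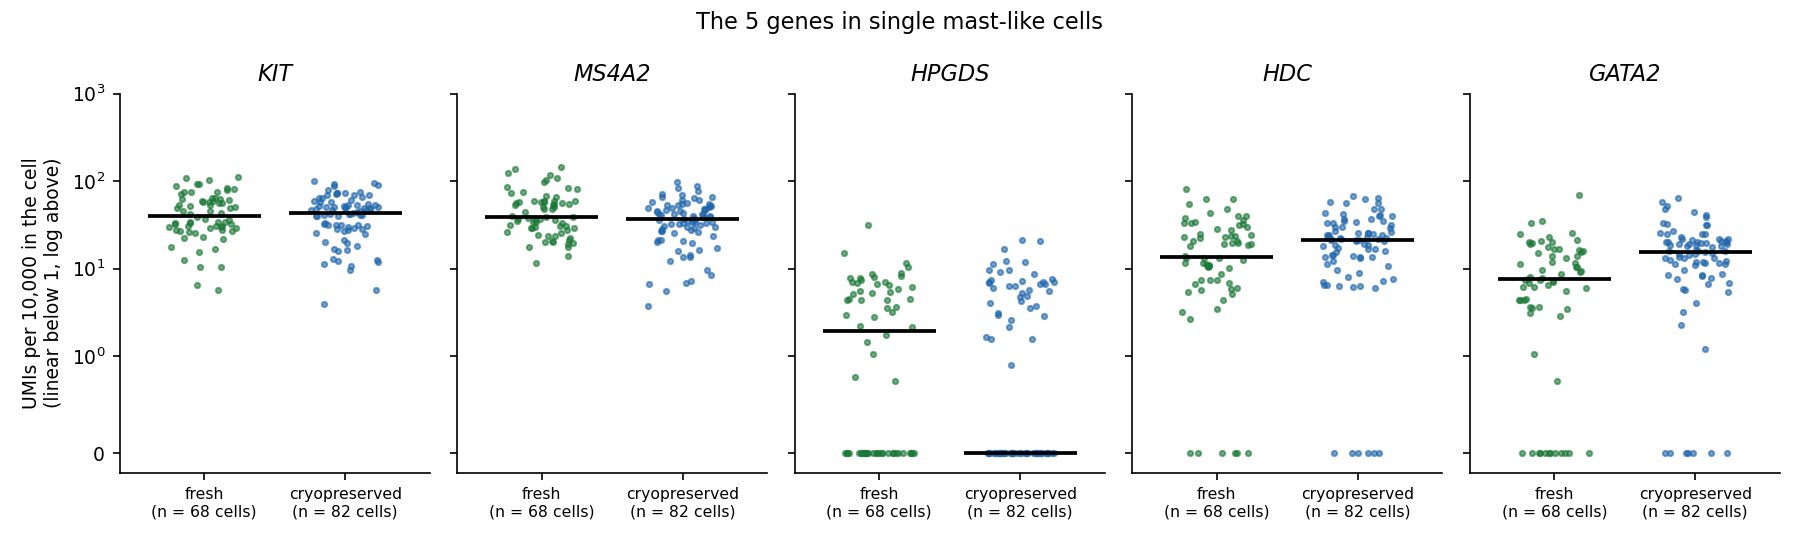
UMIs of each gene per 10000 UMIs in single mast-like cells (y axis, linear below 1 and logarithmic above), fresh in green (n = 68 cells) and cryopreserved in blue (n = 82 cells); points are cells and black bars are medians. The cells of both libraries overlap for each gene; the GATA2 median is 7.51 fresh and 15.6 cryopreserved, and the HDC median is 13.5 and 21.3.

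Freezing and thawing was the comparison the study was built on, and it is 1 library against 1. In mast-like cells GATA2 stood apart from the other 4 genes. Its level was 809 CPM fresh and 1577 CPM cryopreserved, a cryopreserved over fresh log2 ratio of 0.96 (0.72 to 1.21), from 211 and 422 UMIs. The log2 ratios of the others were -0.08 (-0.20 to 0.04) for KIT, -0.10 (-0.22 to 0.02) for MS4A2, 0.14 (-0.32 to 0.61) for HPGDS and -0.15 (-0.31 to 0.02) for HDC. None of the 5 reached 2-fold, although the GATA2 interval ran past it, and 9.73% of 3825 genes with at least 20 UMIs in mast-like cells did. Among the 457 genes with at least 200 UMIs there, 1.53% did so in either direction and 0.438% upward, and the GATA2 ratio was above or equal to that of 99.6% of them. The GATA2 ratio was 0.96 as well in barcodes with both a KIT and an MS4A2 UMI, taken without clusters, and 0.96 when the mitochondrial limit was also dropped, both added after seeing the data. The first set, 78 fresh and 101 cryopreserved barcodes, includes all 68 and 82 mast-like cells, since each of these held both genes. Its ratio therefore rests mostly on the same cells and is no separate check. In endothelial-like and lymphatic-like cells the GATA2 log2 ratios were 0.46 (0.10 to 0.83) and 0.41 (0.04 to 0.79). Over all cells outside the mast-like cluster the GATA2 log2 ratio was -0.08 (-0.33 to 0.17), from 262 and 274 UMIs. Most of these lay in endothelial-like cells (123 and 131 UMIs) and lymphatic-like cells (123 and 118 UMIs). Endothelial-like cells held 4.86% of all UMIs fresh and 3.39% cryopreserved, and lymphatic-like cells 2.51% and 1.63%. The outside sum mixes the level in each class with the share of each class. In both of these classes the GATA2 level was higher in the cryopreserved library, while their share of all UMIs was lower. The part of each in the outside ratio was not tested. Mast-like cells had a median mitochondrial share of 5.05% fresh and 6.09% cryopreserved, and the part of cell quality in the ratio was not tested.

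Among the other classes, MS4A2 in CD163/CD209 myeloid-like cells was at 164 CPM fresh and 103 CPM cryopreserved, a log2 ratio of -0.66 (-0.93 to -0.40). In keratinocyte-like cells its log2 ratio was -3.74 (-6.10 to -2.06), from 30 UMIs in 3 fresh cells and 3 UMIs in 3 cryopreserved cells. Of the fresh UMIs, 14 and 9 lay in 2 cells that also held UMIs of KIT (15 and 13), HDC and GATA2. The ratio thus rests mostly on these 2 cells. Intervals also lay below 0 for KIT in endothelial-like cells (-0.17, -0.33 to -0.01) and keratinocyte-like cells (-0.94, -1.67 to -0.24). Over all cells outside the mast-like cluster the KIT log2 ratio was -0.41 (-0.53 to -0.29). Cluster 20, where MS4A2 was at 57.7 and 23.1 CPM, held 15 of 154 fresh and 44 of 276 cryopreserved myeloid-like cells, and within cluster 7 MS4A2 was at 176 and 118 CPM. Other log2 ratios had intervals above 0. These were KIT in dendritic-like cells (1.18, 0.22 to 2.2) and MS4A2 in T or NK-like cells (3.15, 0.36 to 8.57). GATA2 in fibroblast-like cells was another (2.68, 0.54 to 5.87). They rested on 13 and 34, 1 and 11, and 2 and 13 UMIs. In T or NK-like cells GATA2 had 0 and 7 UMIs.

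For HDC the sum and the typical cell differed. Its summed level was lower in the cryopreserved mast-like cells, with a log2 ratio of -0.15, while its median cell was higher, at 13.5 UMIs per 10000 fresh and 21.3 cryopreserved. In all filtered cells the log2 ratios were -0.30 (-0.38 to -0.22) for KIT, -0.14 (-0.24 to -0.04) for MS4A2, 0.01 (-0.27 to 0.30) for HPGDS, -0.25 (-0.41 to -0.09) for HDC and 0.41 (0.24 to 0.58) for GATA2. No member passed 2-fold, and 1.07% of 11692 genes did. In such sums fewer cells of a type and less RNA per cell cannot be told apart. The signs for KIT, MS4A2 and HDC turned with the cells kept: with all deposited barcodes they were 0.13, 0.51 and 0.54.

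**Figure D4:**
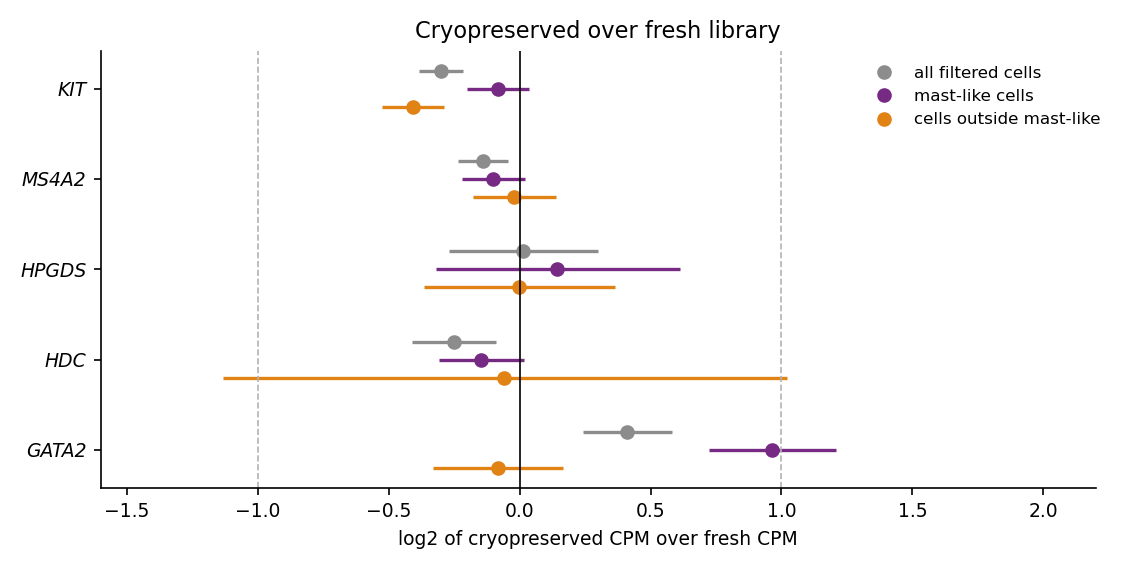
Log2 of the cryopreserved over the fresh level (x axis) for each gene in all filtered cells (grey), mast-like cells (purple) and all other cells (orange); points are ratios of 1 library to 1 library and bars are exact 95% intervals for counting error. Dashed lines mark 2-fold; GATA2 in mast-like cells (0.96) lies nearest to one, and the other 4 genes in mast-like cells lie between -0.15 and 0.14.

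The partners of the 5 genes, from lists chosen beside them, divided between mast-like cells and their neighbours. KITLG, the ligand of KIT, was at 0 UMIs in mast-like cells of both libraries, which allows up to 11.5 and 11.2 CPM. It was highest in endothelial-like cells at 343 CPM (315 to 373) and 287 CPM (258 to 318), the class with the second KIT level, and stood at 73.4 and 67.4 CPM in keratinocyte-like and 68.7 and 58.6 CPM in SMC-like cells. Of the other KIT partners, GRB2, PTPN6, SH2B3 and MITF were at least 2-fold higher in mast-like than in remaining cells in both libraries, and SOS1 was lower, at 0.670-fold (0.489 to 0.898) and 0.573-fold (0.391 to 0.809). The list's median fold was 4.49 and 3.76, against 0.633 and 0.685 over 11692 genes. Of these 11692 genes, with at least 200 UMIs each, 9.19% were at least 2-fold and 1.18% at least 10-fold higher in both libraries. These shares also stand beside the counts of the lists below, which have no such minimum of UMIs.

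Of 8 measured genes of the IgE receptor and its signalling, 6 were at least 2-fold higher in mast-like cells, with a median fold of 13.4 and 11.3, and 1 of these, FCER1A, had also named the cluster. FCER1A was at 1526 and 1424 CPM in mast-like cells and 211 and 231 CPM in dendritic-like cells. FCER1G, the shared gamma chain, was at 1718 and 2052 CPM in mast-like cells and 940 and 1328 CPM in myeloid-like cells. SYK, the kinase downstream, was at 69.0 and 26.2 CPM in mast-like cells, from 18 and 7 UMIs. Its fold over the rest was 5.22 (3.06 to 8.35) fresh and 1.87 (0.749 to 3.89) cryopreserved, where the second interval includes equal levels.

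The measured histamine receptors were highest in different classes. SLC18A2, which loads histamine into granules, was at 138 and 105 CPM in mast-like cells, and 61.0% and 47.5% of its UMIs were there, though it is one of the markers that named the cluster. HRH1 was at 338 and 274 CPM in endothelial-like cells and at 0 UMIs in mast-like cells. HRH2 was highest in T or NK-like cells at 113 and 104 CPM. HRH4 was highest in mast-like cells at 53.7 CPM (29.3 to 90.1) and 78.5 CPM (48.6 to 120), from 14 and 21 UMIs. HNMT, which degrades histamine, was at 70.9 and 67.8 CPM in myeloid-like cells and at 0 UMIs in mast-like cells. A 0 in mast-like cells allows up to 11.5 and 11.2 CPM. The remaining cells were at 12.3 and 13.7 CPM for HNMT, so its 0 hardly sets mast-like cells apart from them. For HRH1 they were at 33.9 and 25.6 CPM. Of the 6 histamine genes 2 were at least 2-fold higher in mast-like cells in both libraries.

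Of 9 measured genes of prostaglandin D2 and leukotrienes 8 were at least 2-fold higher in mast-like cells, with median folds of 10.5 and 11.5. Of these 8, PTGS1, ALOX5, ALOX5AP and LTC4S had also named the cluster, while PTGS2, HPGD, PLA2G4A and PTGDR2 had not. PTGS1, which supplies the substrate of HPGDS, was at 840 and 1177 CPM, and LTC4S, which makes leukotriene C4, at 993 and 1185 CPM. PTGS2 was higher than PTGS1 in mast-like cells, at 3451 and 3237 CPM, and was at 482 and 439 CPM in the rest. HPGD, which inactivates prostaglandins, was at 2956 and 2392 CPM in mast-like cells and 11.5 and 10.8 CPM in the rest. PTGDS, the other prostaglandin D synthase, was at 0 UMIs in mast-like cells, which allows up to 11.5 and 11.2 CPM. It did not exceed 1.17 CPM in any class, so this 0 does not set mast-like cells apart. PTGDR2, a prostaglandin D2 receptor, did not exceed 23.9 CPM in any class. Its mast-like values rested on 1 and 3 UMIs. Its folds of 2.49 (0.062 to 14.5) and 4.33 (0.878 to 13.1) have intervals that include equal levels, though it counts among the 8.

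Of the 11 GATA and mast cell factors 4 were at least 2-fold higher in mast-like cells, namely GATA1 and TAL1, which had also named the cluster, and MITF and SPI1, which had not. All 47 fresh and 59 of 63 cryopreserved GATA1 UMIs were in mast-like cells, where GATA2 was 44.6% and 60.6%. GATA3 had 0 and 1 UMIs in mast-like cells and was at 399 and 597 CPM in T or NK-like cells. The list's median fold was 1.24 and 2.22, leaving out GATA4 in the fresh and GATA5 in the cryopreserved library, which had no fold there. The cryopreserved median counts GATA4 at 67.2-fold, from 1 UMI in mast-like cells. Of the 2 measured granule genes SRGN and HPSE both were at least 10-fold higher, HPSE from 4 and 7 UMIs, and of 5 measured surface receptors IL1RL1, CSF2RB and ENPP3 were, while CD63 and ICAM1 were between 1.04-fold and 2.01-fold. IL1RL1, CSF2RB and ENPP3 had also named the cluster, so that count repeats the naming rule.

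**Figure D5:**
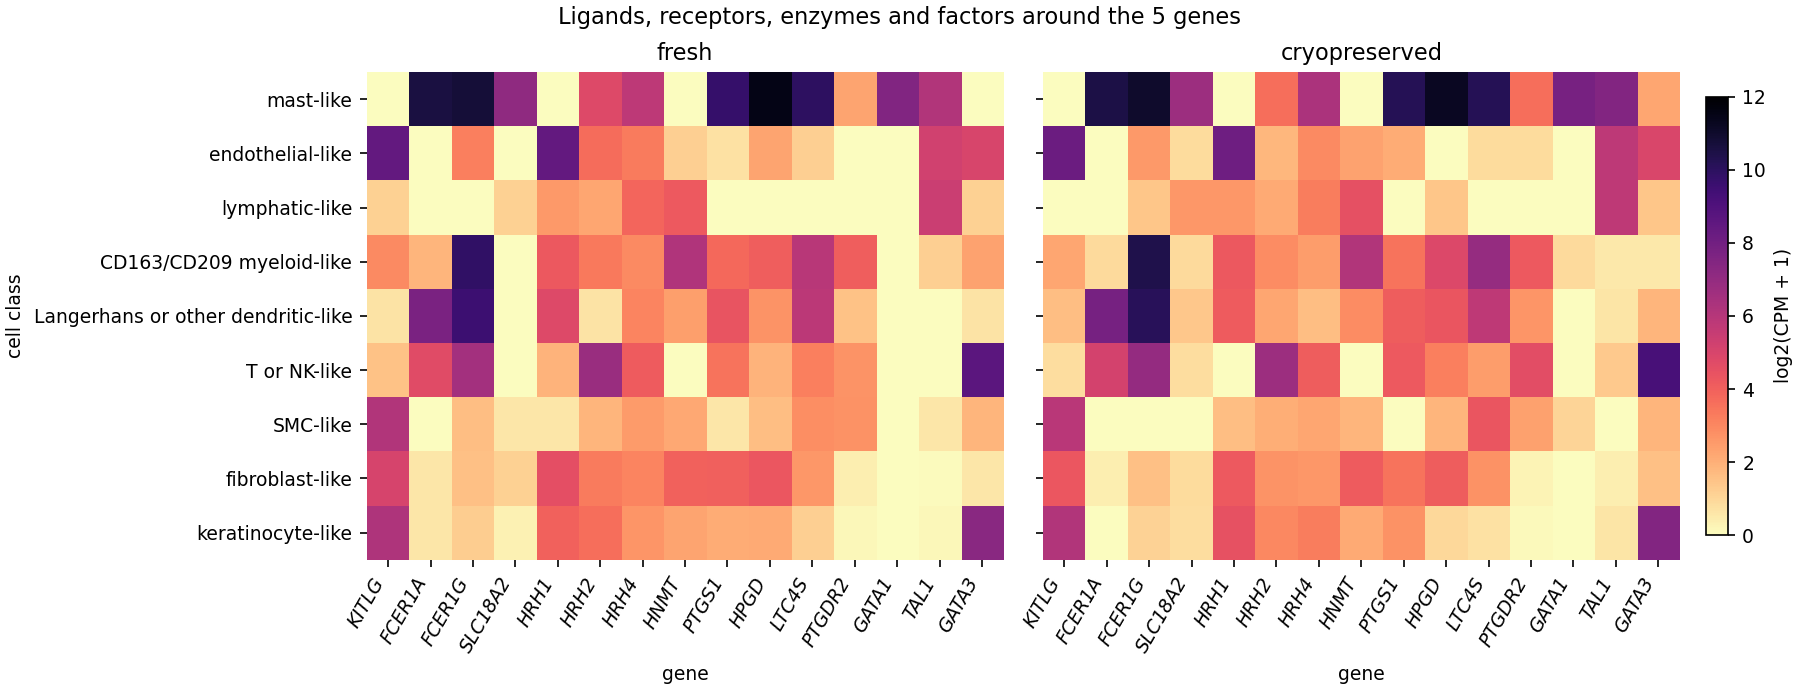
Level of 15 ligands, receptors, enzymes and factors (x axis) in 9 cell classes (y axis), fresh left and cryopreserved right; colour is log2(CPM + 1) of the summed UMIs of a class in 1 library. KITLG and HRH1 are darkest in endothelial-like cells (343 and 338 CPM fresh) and at the palest shade in mast-like cells, at 0 UMIs, where FCER1A, FCER1G, PTGS1, HPGD and LTC4S are dark (840 to 2956 CPM fresh).

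The genes whose levels ran most like the mean of the 5 were ranked over 40 profiles, 20 clusters in each of 2 libraries, by Pearson r of log2(CPM + 1) among 14443 genes. The first 10 held NPY (r = 0.895), a neuropeptide, CCL1 (0.881), a chemokine, PCMT1 (0.871), a protein repair enzyme, GATA1 (0.862) and CSF2RB (0.860), the shared chain of the interleukin-3 and interleukin-5 receptors. The other 5 had no symbol, led by ENSSSCG00000036851 (0.916) and ENSSSCG00000021222 (0.894). NPY was at 886 and 1596 CPM in mast-like cells and 0.247 and 0.250 CPM in the rest. Profiles of a cluster share cells and depth with each other across genes, so these values are descriptions.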

How the data were processed

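The members, gene lists and naming markers were chosen with earlier results of these data known. The authors made the deposited UMI counts with Cell Ranger 4.0.0 and STAR 2.5.1b on Sscrofa11.1 with Ensembl annotation from droplet libraries that tag transcript ends, and deposited barcodes of at least 500 UMIs. Cells within the study's maxima (13 mitochondrial genes) were integrated and clustered in Seurat 5.3.0 (2000 variable features less the 5 members, leaving 1995, 30 dimensions, resolution 0.8). A cluster was named where at least 3 markers had a UMI in at least 10% of its cells and at least 2-fold the median cluster's level. A cluster far shallower than its library also needed a marker of that list among its 10 leading genes. The mast-like cluster, at 0.250 and 0.307 of the library medians, met this through 1 gene, ENPP3. This rule was set after clusters had been seen, and 1 of 23 stayed unnamed. Epidermal stem-like and differentiated keratinocyte-like clusters were joined as keratinocyte-like. UMIs were summed per class and library and scaled by TMM factors (edgeR 4.0.16; 1.01 fresh, 0.987 cryopreserved). Thinning drew 2000 UMIs per cell and left out shallower cells, 24 fresh and 34 cryopreserved mast-like ones. Intervals were exact Poisson, Clopper-Pearson or conditional binomial (scipy 1.17.1), and a 0 allows 3 counts. Scrublet marked 3 fresh and 35 cryopreserved cells, 0.108% and 0.829%, and none was removed. Scatter gating, which the study describes, acts on cells before the libraries and cannot remove doublets formed later. Against doublets the study also set its gene and UMI maxima, and some can remain. Leaving out the 6% of highest score was an alternative. Named genes are the members and the fixed lists' measured genes, and the 10 of highest likeness. The ratio was tested on simulated counts. Ratio backgrounds used genes with at least 200 UMIs per table, 20 in mast-like cells. Protein sequences were not used here.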

Additional observations from a re-analysis of the deposited data

Results flagged for a closer look

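Barcodes outside the study's maxima entered only the alternatives that lift those limits, and some carried the mast cell genes. UMIs of 3 or more of the 5 were found in 8 of 1604 such barcodes in the fresh library (0.499%, 0.216 to 0.980) and in 36 of 637 in the cryopreserved library (5.65%, 3.99 to 7.74), each flagged as a signal in data that the main comparisons leave out. Of these, 7 and 35 exceeded only the mitochondrial limit, where they made up 0.697% of 1004 and 7.85% of 446 barcodes, against 2.49% and 2.08% within the maxima. Their median depth was 945 and 1026 UMIs and their median mitochondrial share 12.4% and 12.8%. Whether they are damaged mast cells was not tested.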

How the results depend on the processing

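Of 209 alternatives to the 46 values treated as main results, 179 stayed within their counting interval, 30 moved and 0 reversed by the rule used. The other 20 values were less stable, and 16 of their 30 alternatives moved. Over all 66 values, 46 of 239 alternatives moved and 0 reversed, though the uncalled library ratios of KIT, MS4A2 and HDC changed sign. The order of the libraries by the share of cells with 3 or more genes also turned without the mitochondrial limit. With all deposited barcodes, fresh levels were 56.3 (KIT), 36.0 (MS4A2), 3.93 (HPGDS), 12.96 (HDC) and 10.6 CPM (GATA2), and cryopreserved HDC was 18.8 CPM. The log2 ratios were then 0.13, 0.51, 0.57, 0.54 and 0.85 in the same gene order, 34.2% of cryopreserved MS4A2 cells held KIT, and 1.76% of fresh barcodes held 3 or more genes. With no mitochondrial limit, KIT was 72.1 CPM fresh and 67.4 cryopreserved, and cryopreserved MS4A2, HDC and GATA2 were 54.2, 20.2 and 20.8 CPM. The log2 ratios were -0.10 for KIT, 0.049 for MS4A2 and 0.046 for HDC, and 2.63% of cryopreserved cells held 3 or more genes. That share was above the fresh one, whereas within the maxima it was below. Without the 6% of cells of highest doublet score, 51.5% and 54.8% of KIT UMIs were mast-like. When 2 UMIs of both genes were required, the fresh shares were 98.2% for MS4A2 in HDC cells, 28.9% for MS4A2 in KIT cells and 25.4% for GATA2 in KIT cells, and the cryopreserved shares were 96.1% for KIT in HDC cells, 35.7% for KIT in MS4A2 cells and 32.4% for MS4A2 in KIT cells. The causes were not tested. Fits on barcodes with both KIT and MS4A2, and shares with 3 or more genes, were added after seeing the data. No paired analysis was possible because each condition has 1 library, and leaving out a replicate was impossible for the same reason. Depth limits HPGDS most, with 75 and 85 UMIs in mast-like cells.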
